A study of Schizosaccharomyces pombe with 30 samples.

Results

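Introns of 6 genes of the fission yeast Schizosaccharomyces pombe were followed here. The genes were chosen by their intron values in pht1∆ at 30 °C, where 1 intron of each was among the highest in cells without the histone variant H2A.Z: bud20 (SPAC19B12.11c), SPAC186.08c, rec7 (SPCC1753.03c), ers1 (SPCC1393.05), rpc82 (SPAPB1E7.03) and ptc3 (SPAC2G11.07c). They are 6 of 5085 genes on a splicing array and hold 38 of its 14556 features: 16 of 4836 intron features, 16 of 4651 junction features and 6 of 5069 exon features. Each array set mutant RNA (Cy5) against wild-type RNA (Cy3) from cells given the same temperature, and there were 30 arrays in 10 groups of 3. The groups grown at 30 °C were pht1∆, pht1∆ usp107DAmP, usp107DAmP and swr1∆. Those shifted to 16 °C for 9 hours were pht1∆ prp16DAmP, pht1∆ and prp16DAmP, and those shifted to 37 °C for 2 hours were swr1∆ prp16DAmP, swr1∆ and prp16DAmP. pht1 encodes H2A.Z, swr1 the ATPase that exchanges it into nucleosomes, prp16 a helicase of the second splicing step and usp107 a part of the U1 particle; a DAmP allele is built to lower the abundance of an mRNA. Wild type had no arrays of its own and dyes were not swapped, so a comparison with wild type tests the mean ratio of 3 arrays against 0, any dye bias included.

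During splicing the U1 particle pairs with the 5′ end of an intron, the branch site is recognised near its other end, and the spliceosome cuts the intron out while the RNA is still being made on chromatin. An RNA that keeps its intron usually meets a stop codon early and is often destroyed. H2A.Z sits in the nucleosomes around the start of genes, and fission yeast genes often hold several short introns with variable splice sites.

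The genes do unrelated work. rpc82 encodes a subunit of RNA polymerase III, which makes tRNA. bud20 encodes a zinc finger protein, which in budding yeast helps to export the large ribosomal subunit from the nucleus. ers1 encodes a factor of RNA-silencing, by which heterochromatin is set at centromeres. rec7 encodes a protein needed for the DNA breaks of meiotic recombination, and the cultures used were in vegetative growth. SPAC186.08c is annotated as an L-lactate dehydrogenase and lies 29121 bases from the end of chromosome I. ptc3 encodes a catalytic subunit of the PP2C family of protein phosphatases. bud20, SPAC186.08c and rpc82 have 1 annotated intron, rec7 and ptc3 have 2, and ers1 has 10, of which introns 2 to 10 were on the array.

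The intron of each gene with the highest value in pht1∆ at 30 °C is called its leading intron, and the other 10 introns of rec7, ers1 and ptc3 serve as their neighbours. The leading introns are shown because every result below turns on them, and 2 further introns of ers1 are shown for contrast. Sequences are from the RefSeq annotation of assembly ASM294v3, matched by systematic identifier and intron number. The build and the probe sequences behind the array are not used here. All lie inside coding sequence and are written 5′ to 3′ on the strand of the gene. Capitals mark the first 6 bases, the last 3 bases and, where there is one, a branch word within the last 60 bases. The words searched were CTAAC and CTAAT, and also CTGAC and CTGAT.
bud20 intron 1, chrI:4904041-4904099, minus strand: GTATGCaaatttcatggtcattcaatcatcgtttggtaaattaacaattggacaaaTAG
SPAC186.08c intron 1, chrI:5549820-5549955, minus strand: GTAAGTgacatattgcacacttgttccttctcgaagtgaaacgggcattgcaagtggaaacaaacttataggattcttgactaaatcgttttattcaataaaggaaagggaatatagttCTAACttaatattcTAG
rec7 intron 1, chrIII:1548860-1548916, minus strand: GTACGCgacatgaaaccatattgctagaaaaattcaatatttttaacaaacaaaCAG
ers1 intron 8, chrIII:803558-803599, plus strand: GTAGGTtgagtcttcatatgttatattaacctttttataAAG
rpc82 intron 1, chrI:3286668-3286746, plus strand: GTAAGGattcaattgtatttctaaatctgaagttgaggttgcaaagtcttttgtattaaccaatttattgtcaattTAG
ptc3 intron 2, chrI:821006-821044, minus strand: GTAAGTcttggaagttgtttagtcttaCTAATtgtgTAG
ers1 intron 5, chrIII:801987-802031, plus strand: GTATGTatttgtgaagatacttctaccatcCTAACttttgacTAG
ers1 intron 10, chrIII:804019-804059, plus strand: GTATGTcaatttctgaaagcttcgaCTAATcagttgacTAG

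A branch word was found in 2 of the 6 leading introns, those of SPAC186.08c and ptc3, and in 7 of the 10 others, while 75.6% of 5025 annotated coding introns of at least 30 bases hold one. The words were read on the strand of the intron only, and a missing word says only that these letters are not in the window. SPAC186.08c intron 1 and ptc3 intron 2 start with GTAAGT, as 27.5% of the annotated introns do. The other starts are shared by fewer introns: GTATGC of bud20 by 3.94%, GTAAGG of rpc82 by 2.47%, GTAGGT of ers1 intron 8 by 1.39% and GTACGC of rec7 intron 1 by 0.776%. Rare starts were also found among the 10 others: GTCTGT of ers1 intron 6 (0.02%), GTATTT of intron 3 (0.896%) and GTATGG of intron 2 (1.57%). ers1 intron 7 starts with GTATGC, as bud20 intron 1 does, and holds no branch word. The rest of the 10, with ers1 introns 5 and 10 shown above, start with GTAAGT or GTATGT. ers1 intron 8 ends in AAG, as 12.3% of introns do. The leading introns are 39 to 136 bases long, against a median of 56 over all. Read on in frame from the exon before, 5 of them meet a stop codon, which ends at base 4 in ers1 intron 8, 24 in rpc82, 27 in rec7, and 39 in SPAC186.08c and in ptc3. bud20 intron 1 has no stop in that frame, and its 59 bases shift the frame of what follows.

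The annotation places other genes over 5 of the 6 leading introns, all on the opposite strand: the coding gene sst2 over that of bud20, and antisense non-coding RNAs over those of rec7, ers1, rpc82 and ptc3. How many of the other introns of these genes, or of all introns, are overlapped in this way was not counted. The labels do not say whether the probes separate the strands.

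Values are log ratios of mutant over wild type, read as log2. The labels name no log base. An intron feature is meant to rise when more RNA of the gene carries the intron. A junction feature is meant to follow the spliced product, and the exon feature all RNA of the gene. The splicing index is the intron feature minus the exon feature of the same gene. In RNA from whole cultures, more intron in every cell and intron kept in a few cells cannot be told apart.

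The values of pht1∆ at 30 °C chose the genes and are given without a test. By index the 6 leading introns ranked 1, 3, 4, 5, 6 and 8 of 4817, and by intron feature 1, 2, 3, 5, 6 and 7 of 4836. The intron feature of bud20 read 3.80, 2.50 and 2.86 on the 3 arrays, that of rec7 3.76, 1.79 and 1.76, and that of SPAC186.08c 2.92, 1.80 and 2.43. ers1 intron 8 was the most even, at 2.26, 2.19 and 2.20. The lowest of the 6 were rpc82 at 2.17, 0.80 and 1.84, and ptc3 intron 2 at 2.10, 0.91 and 1.92. Just inside the rule, ptc3 intron 2 had a mean index of 1.61. Next outside it was dph5 intron 2 at 1.54, with an exon feature of −1.12. mfm2 intron 1, at 2.85, and mtl16 intron 4, at 1.68, ranked above some of the 6 by index and are not among them. By intron feature SPAC212.06c intron 1 ranked 4, at 2.25, with an exon feature of 1.78, and is not among them either. The intron feature of mfm2 was −0.02, and its exon feature −2.87.

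**Figure D1:**
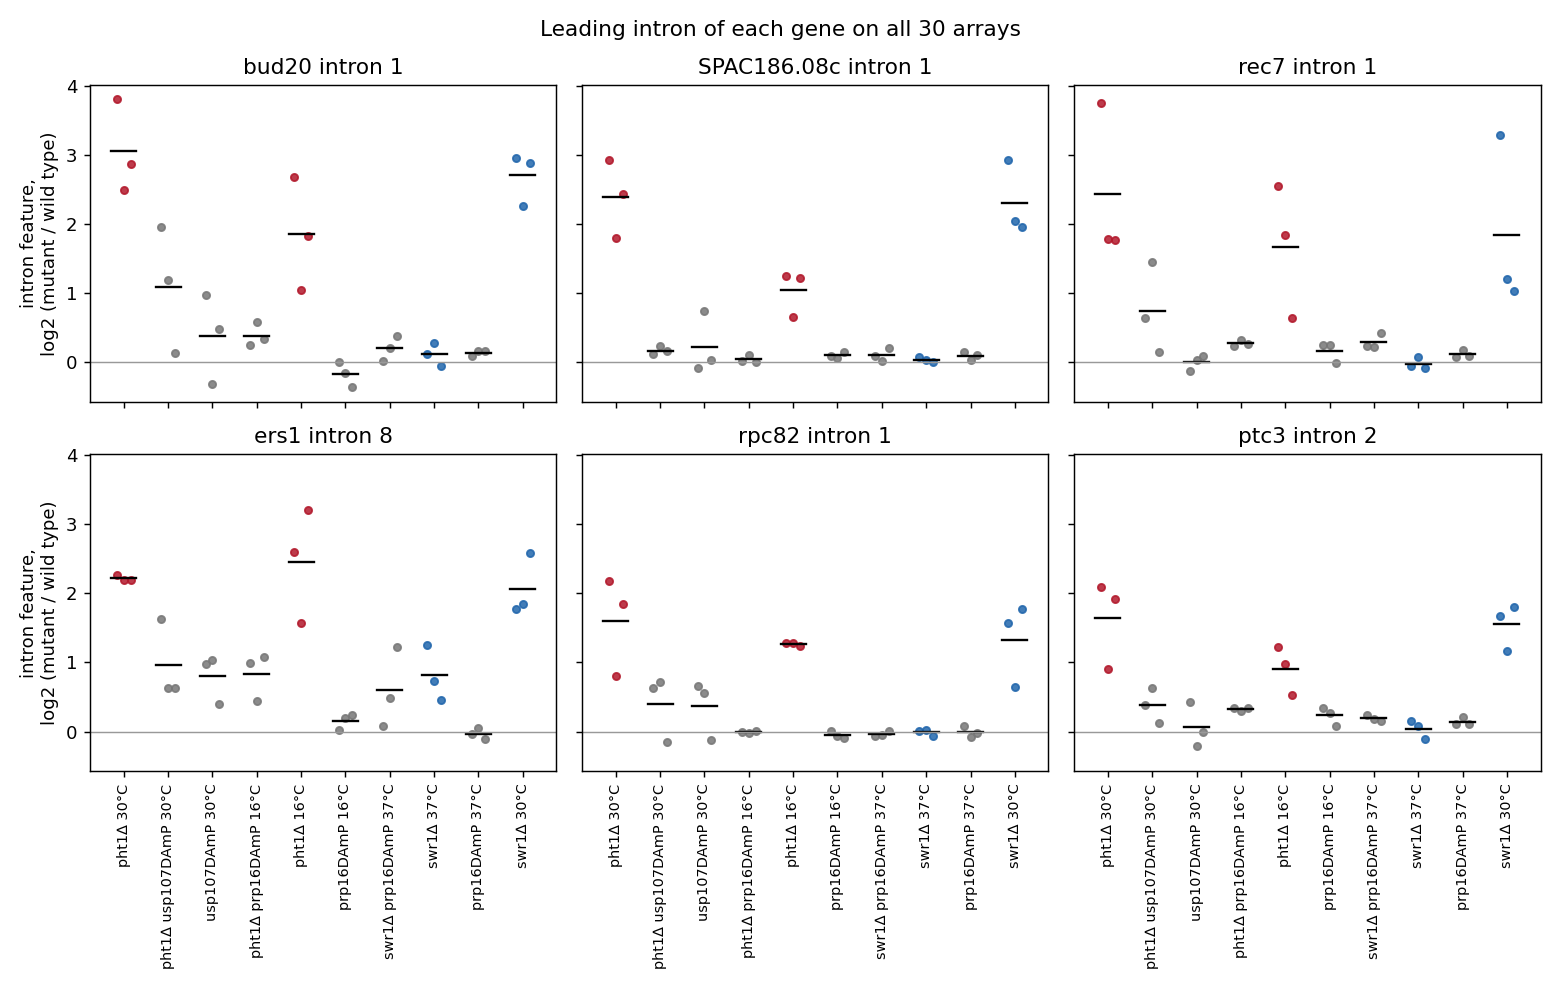
Intron features of the 6 leading introns on all 30 arrays (log2, mutant over wild type), with 1 panel per gene, a point per array and a bar at the mean of 3 arrays. Red marks pht1∆ alone, blue swr1∆ alone and grey the groups with a DAmP allele; swr1∆ at 30 °C and pht1∆ at 16 °C are high in all panels, while swr1∆ at 37 °C is near 0 except in ers1.

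The deleted gene's own exon feature bore out the label in pht1∆ at 30 °C and 16 °C and did not do so in the other 5 groups with a deletion. The pht1 exon feature read −0.16, 0.12 and −0.06 in the group labelled pht1∆ prp16DAmP and −0.07, 0.06 and 0.08 in that labelled pht1∆ usp107DAmP, against −1.08, −0.43 and −0.45 in pht1∆ at 30 °C and −0.75, −0.65 and −0.83 in pht1∆ at 16 °C. The swr1 exon feature read −0.16, −0.14 and −0.02 in the group labelled swr1∆ prp16DAmP, −0.20, −0.16 and −0.21 in that labelled swr1∆ at 37 °C and −0.25, −0.07 and 0.00 in that labelled swr1∆ at 30 °C, with none called (limma adjusted p = 0.787, 0.538 and 0.62). The positions of the probes relative to the deletions were not used here, and probes outside a deleted stretch would check nothing. Directions given for these 5 groups therefore rest on their labels, by which they are named below. The exon features of prp16 and usp107 were not called in any prp16DAmP or usp107DAmP group but 1: prp16, which no allele of that group targets, was −0.51 in the group labelled pht1∆ usp107DAmP (limma adjusted p = 0.0395).

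The group labelled swr1∆ at 30 °C had the same 6 introns raised. All 6 leading introns passed the test, with indices of 1.68 to 3.17, and 0 of the 10 other introns did. Over all 4817 introns 4.57% were called higher and 1.74% lower. All 6 intron features were also called higher, against 3.62% of intron features in all. The median index of the 6 was 1.85, that of the 10 other introns −0.14 and that of all introns 0.06. Ordered by index, the 6 took ranks 1 and 3 to 7 of 4817. These arrays are not independent of those that chose the genes. Deviations from the group mean went together in same-numbered arrays of swr1∆ and pht1∆ at 30 °C, with r of 0.785, 0.676 and 0.532 over exon features, 0.591, 0.602 and 0.261 over junctions and 0.369, 0.457 and 0.102 over indices, each across features of replicates 1, 2 and 3. What the arrays share, such as the wild-type RNA, is not given in the labels, and its part in the swr1∆ values was not tested.

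bud20 intron 1 read 2.95, 2.27 and 2.89 on the swr1∆ 30 °C arrays as an intron feature, a 6.51-fold mean ratio. All 3 arrays were high, and the index was 3.17 ± 0.25 (limma standard error, n = 3, adjusted p = 5.42e-10). rpc82 intron 1 read 1.56, 0.65 and 1.78, a 2.51-fold mean ratio, with replicate 2 below the others. Its exon feature was lowest on that array too, so the index was more even, at 1.77 ± 0.15 (limma, n = 3, adjusted p = 2.94e-09). ers1 intron 8 read 1.77, 1.85 and 2.58, a 4.19-fold mean ratio, and its index was 1.94 ± 0.22 (limma, n = 3, adjusted p = 3.89e-07). SPAC186.08c intron 1 read 2.92, 2.04 and 1.95, a 4.94-fold mean ratio. Its exon feature was uneven, at 0.39, −1.16 and 0.11, which enters the index of 2.53 ± 0.20 (limma, n = 3, adjusted p = 5.42e-10). ptc3 intron 2 read 1.67, 1.17 and 1.81, a 2.93-fold mean ratio, and its index was 1.68 ± 0.18 (limma, n = 3, adjusted p = 1.79e-07).

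rec7 intron 1 rested on 1 array. It read 3.29, 1.20 and 1.03 in swr1∆ at 30 °C, with replicate 1 far above the other arrays but all 3 above 0. Its index was 1.70 ± 0.33 (limma, n = 3, adjusted p = 0.00191), and without replicate 1 it was 1.05 and was no longer called (limma adjusted p = 0.181). On replicate 1, 19.3% of intron features shared their value with another intron, as did 32.8% on pht1∆ 30 °C replicate 1 and at most 6.25% on every other array. No leading intron held such a repeated value. The part of these 2 arrays in the result was not tested beyond leaving them out, which gave an adjusted p of 0.0596 for rec7 (limma) and left the other 5 called. The labels do not say whether the 3 arrays of a group came from separate cultures, so a p-value here reflects array-to-array spread alone, which may be technical.

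No fall of the spliced products was called beside the rise of the introns. In swr1∆ at 30 °C the junction features across the 6 leading introns lay between −0.16 (bud20) and 0.15 (rec7), and 0 of 6 were called, against 1.38% of all junctions called lower and 2.19% higher. At an unadjusted p under 0.05, limma called 0 of the 6 and 846 of all 4651 junctions. The junction of bud20 read −0.18, −0.44 and 0.13 and that of rpc82 −0.09, −0.04 and −0.06. The genes were chosen as introns lost to splicing. In swr1∆ at 30 °C their leading intron features were higher, with no called loss of spliced RNA. In pht1∆ at 30 °C, given without a test, the bud20 junction read −0.16, −0.62 and −0.41. That of rpc82 read −0.18, −0.13 and −0.14 there. The exon features of bud20 and rpc82 were below 0 on all 3 of these arrays, with means of −0.73 and −0.49, which enter the index. The other leading junctions had means of −0.04 to 0.265 in that group. Whether RNA of the opposite strand entered the intron features was not tested. Of the exon features in swr1∆ at 30 °C, that of rpc82 was called lower at −0.44 ± 0.13 (limma, n = 3, adjusted p = 0.0466). Its arrays read −0.38, −0.78 and −0.15, and 3.65% of all exon features were called lower. That call was lost without replicate 1 (limma adjusted p = 0.215), without replicate 2 (0.466) and with a replicate block (0.0563). The bud20 exon feature read −0.56, −0.95 and 0.10 and was not called (limma adjusted p = 0.0806).

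**Figure D2:**
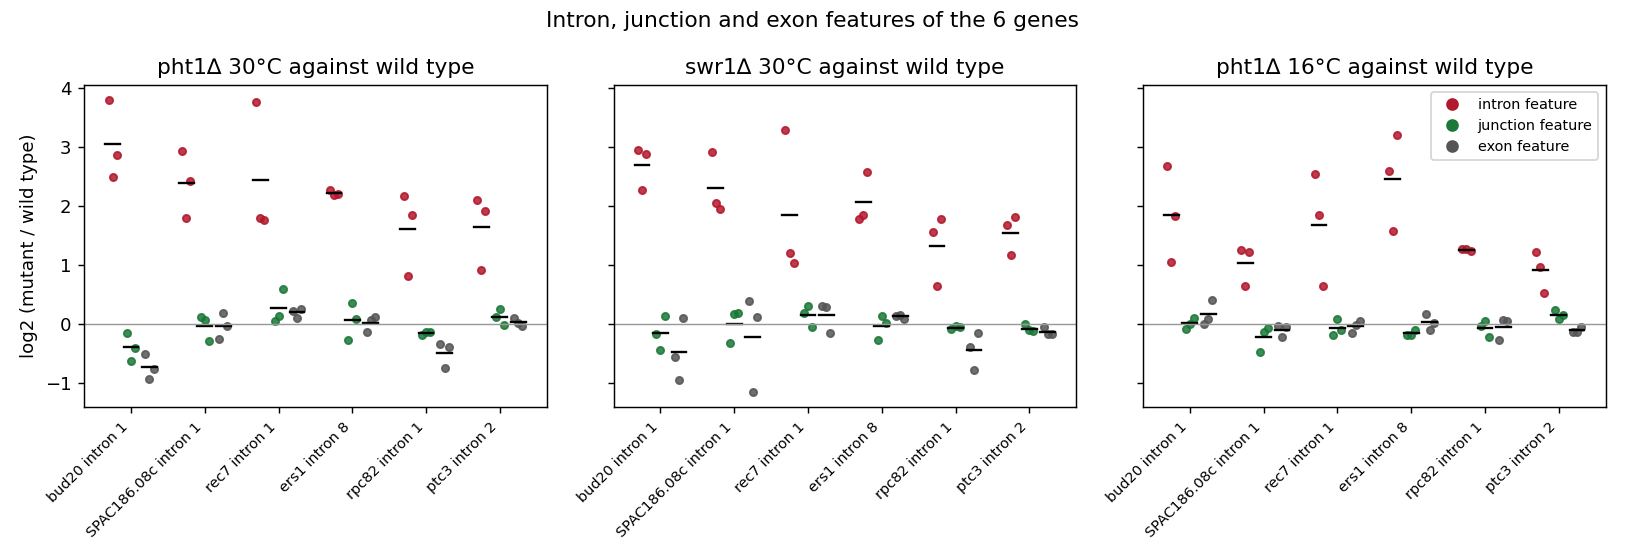
Intron (red), junction (green) and exon (grey) features of the 6 leading introns and their genes, as log2 of mutant over wild type, in pht1∆ at 30 °C, swr1∆ at 30 °C and pht1∆ at 16 °C; points are arrays and bars means of 3 arrays. The intron features stand above the other features in all 3 panels, and the swr1∆ junction means lie between −0.16 and 0.15.

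Loss of H2A.Z in the cold gave the same introns, on arrays whose index deviations did not follow those of same-numbered pht1∆ arrays at 30 °C at all 3 numbers (r of −0.06, −0.02 and 0.14 across introns). Over junctions r was −0.158, 0.00177 and 0.328, and over exon features −0.225, −0.0836 and 0.18. Replicate 3 was thus positive by all 3 measures, and its part in the result was not tested. In pht1∆ at 16 °C all 6 leading introns were called higher, with indices of 1.02 to 2.43, and 0 of the 10 others were. Calls were common in this group: 21.9% of all introns were called higher and 3.88% lower, and the median index of all introns was 0.11. The 6 intron features were called too, against 23.9% of intron features called higher. The 6 took ranks 2, 4, 5, 19, 37 and 59 of 4817. ers1 intron 8 was the highest of them, with intron features of 2.59, 1.57 and 3.20 and an index of 2.43 ± 0.22 (limma, n = 3, adjusted p = 6.37e-09). rpc82 intron 1 was the most even, at 1.28, 1.28 and 1.23, with an index of 1.31 ± 0.15 (limma, n = 3, adjusted p = 5.44e-07). bud20 intron 1 read 2.68, 1.05 and 1.83, with an index of 1.69 ± 0.25 (limma, n = 3, adjusted p = 9.53e-06). All 3 arrays of these introns were above 0, with replicate 2 the lowest for ers1 and bud20.

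The rises of the other leading introns at 16 °C were also seen on every array. rec7 intron 1 read 2.54, 1.84 and 0.64, the widest spread of the 6, and its index was 1.72 ± 0.33 (limma, n = 3, adjusted p = 0.00028). SPAC186.08c intron 1 read 1.25, 0.65 and 1.22, with an index of 1.14 ± 0.20 (limma, n = 3, adjusted p = 0.00011). ptc3 intron 2 read 1.23, 0.97 and 0.52, with an index of 1.02 ± 0.18 (limma, n = 3, adjusted p = 0.000118). Their junctions ranged from −0.23 (SPAC186.08c) to 0.16 (ptc3) and 0 of 6 were called, against 12.3% of junctions called lower and 4.92% higher. The exon features ranged from −0.11 (ptc3) to 0.16 (bud20), and 0 of 6 were called, against 11.5% of exon features called lower and 8.74% higher. The label was borne out by the pht1 exon feature, which read −0.75, −0.65 and −0.83 in pht1∆ at 16 °C.

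At 37 °C the rise was not found in swr1∆ for 5 of the 6. The leading introns had indices of −0.15 to 0.75 against wild type, and 0 of the 16 introns of the 6 genes were called, as was 0% of all introns by limma. At an unadjusted p under 0.05, limma called 1 of the 16 and 459 of 4817. That 1 was ers1 intron 8, which read 1.25, 0.74 and 0.46 on the swr1∆ 37 °C arrays, all above 0, with an index of 0.75 ± 0.22 (limma, n = 3, adjusted p = 0.179). It was called when the 3 arrays were fitted alone (limma adjusted p = 0.0131) and when arrays were scaled to equal spread (index 1.29, limma adjusted p = 0.00655), a scaling under which 10.9% of all introns were called. bud20 intron 1 read 0.12, 0.27 and −0.05, and SPAC186.08c intron 1 read 0.08, 0.03 and 0.00.

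The difference between the temperatures was itself tested. Set against swr1∆ at 30 °C, swr1∆ at 37 °C had a lower index at 4 of the 6 leading introns and at 0 of the 10 others, where 0.228% of all introns were called lower and 0.104% higher. bud20 intron 1 was −0.02 in swr1∆ at 37 °C and 3.17 in swr1∆ at 30 °C, a difference of −3.19 ± 0.35 or 9.11-fold (limma, n = 3 each, adjusted p = 2.13e-06). SPAC186.08c intron 1 was 0.08 in swr1∆ at 37 °C and 2.53 in swr1∆ at 30 °C, a difference of −2.44 ± 0.28 (limma, n = 3 each, adjusted p = 3.62e-06). The arrays of the 2 temperatures did not overlap at either intron, which was not counted over all introns. ptc3 intron 2 differed by −1.84 ± 0.25 (limma, n = 3 each, adjusted p = 5.3e-05) and rpc82 intron 1 by −1.67 ± 0.22 (limma, n = 3 each, adjusted p = 2.76e-05).

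The differences at the last 2 introns were not called. rec7 intron 1 differed by −1.84 ± 0.46 (limma, n = 3 each, adjusted p = 0.0611), which passed the threshold with a replicate block (0.02), with equal spread (0.00167) and without swr1∆ 30 °C replicate 2 (0.0419) or replicate 3 (0.0231). ers1 intron 8 differed by −1.19 ± 0.30 (limma, n = 3 each, adjusted p = 0.069). Its lowest array in swr1∆ at 30 °C, with an intron feature of 1.77, was above the highest in swr1∆ at 37 °C, at 1.25. How many of all introns part in this way between the temperatures was not counted. Wild-type cells were shifted along with the mutant, so a change of wild type enters each ratio. The mean SD of a feature over the 3 arrays was 0.102 in swr1∆ at 37 °C and 0.194 in swr1∆ at 30 °C. The swr1∆ 30 °C arrays are those that went together with the arrays that chose the genes.

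**Figure D3:**
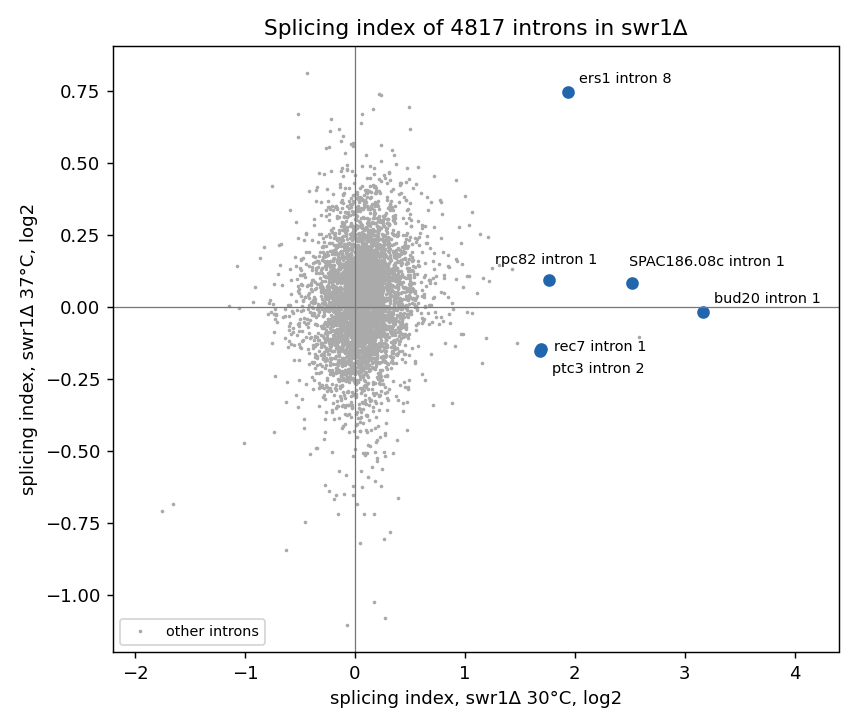
Splicing index of 4817 introns in swr1∆ at 37 °C (vertical axis) against swr1∆ at 30 °C (horizontal axis), both as log2 over wild type and means of 3 arrays; the scales of the axes differ. The 6 leading introns (blue) lie at 1.68 to 3.17 at 30 °C, and all but ers1 intron 8 lie between −0.15 and 0.09 at 37 °C.

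ers1 shows how narrow the change was within a gene. Its intron 8 was high in swr1∆ at 30 °C and in pht1∆ at both temperatures, while the other 8 measured introns of the same gene stayed between −0.30 and −0.05 in index in swr1∆ at 30 °C and between −0.07 and 0.27 in pht1∆ at 16 °C. Of these 8, 0 were called in either group. Its neighbours along the gene, introns 7 and 9, had indices of −0.20 and −0.09 in swr1∆ at 30 °C and of 0.09 and 0.06 in pht1∆ at 16 °C. rec7 and ptc3 gave the same picture with 1 neighbour each. rec7 intron 2 had an index of −0.09 in swr1∆ at 30 °C and −0.01 in pht1∆ at 16 °C, and ptc3 intron 1 had −0.02 in swr1∆ at 30 °C and 0.11 in pht1∆ at 16 °C.

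**Figure D4:**
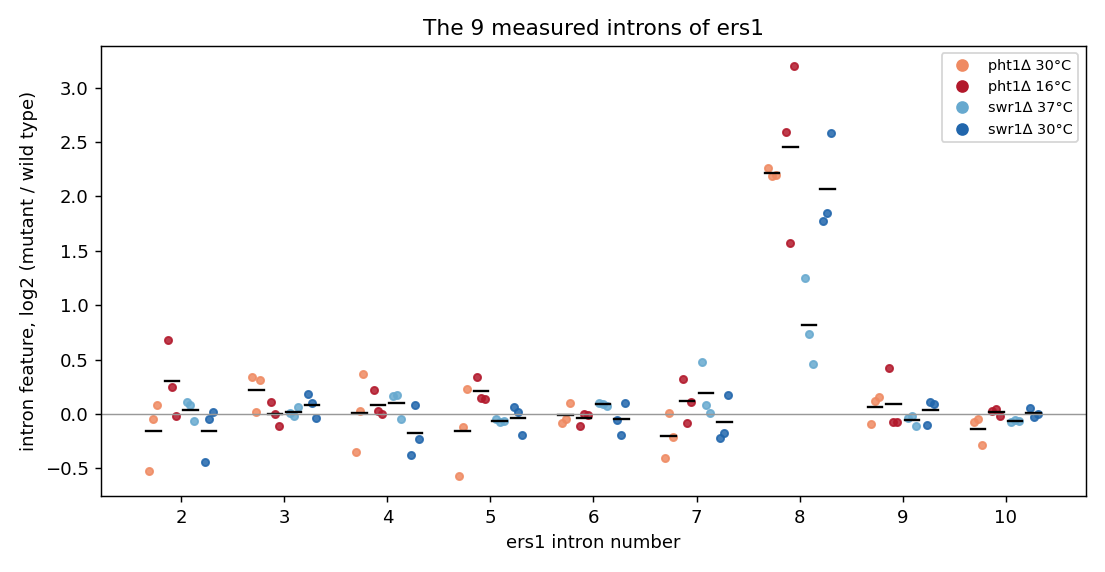
Intron features of introns 2 to 10 of ers1, as log2 of mutant over wild type, in pht1∆ at 30 °C and 16 °C and swr1∆ at 37 °C and 30 °C; points are arrays and bars means of 3 arrays. Intron 8 stands above the others, and its swr1∆ 37 °C arrays (0.46 to 1.25) lie below its swr1∆ 30 °C arrays (1.77 to 2.58).

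The group labelled pht1∆ prp16DAmP at 16 °C had lower leading introns than pht1∆ at 16 °C. Of the 6, 5 were called lower, and 0 of the 10 others were, against 8.28% of all introns called lower and 4.86% higher. ers1 intron 8 read 0.99, 0.45 and 1.08 in the group labelled pht1∆ prp16DAmP, against 2.59, 1.57 and 3.20 in pht1∆, and the difference in index was −1.85 ± 0.30 (limma, n = 3 each, adjusted p = 0.000439). rpc82 intron 1 read 0.00, −0.03 and 0.01 in the group labelled pht1∆ prp16DAmP, against 1.28, 1.28 and 1.23 in pht1∆, a difference in index of −1.22 ± 0.22 (limma, n = 3 each, adjusted p = 0.000714). SPAC186.08c intron 1 read 0.02, 0.10 and 0.01, against 1.25, 0.65 and 1.22 in pht1∆, with a difference in index of −1.18 ± 0.28 (limma, n = 3 each, adjusted p = 0.00621). The arrays of the groups did not overlap at any of these introns, which was not counted over all introns.

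For the other leading introns the difference was less secure. bud20 intron 1 differed by −1.05 ± 0.35 (limma, n = 3 each, adjusted p = 0.043) and rec7 intron 1 by −1.49 ± 0.46 (limma, n = 3 each, adjusted p = 0.0319). Each of these calls was lost when any of several single arrays was left out, most of all pht1∆ 16 °C replicate 1, without which bud20 stood at −0.56 (limma adjusted p = 0.331) and rec7 at −0.998 (limma adjusted p = 0.213). ptc3 intron 2 was not called, at −0.25 ± 0.25 (limma, n = 3 each, adjusted p = 0.546).

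Against wild type, the group labelled pht1∆ prp16DAmP had 2 introns called higher and 1 lower among the 16, against 14.5% of introns called higher and 3.11% lower. Both higher ones were in ptc3, with intron 2 at 0.77 ± 0.18 (limma, n = 3, adjusted p = 0.00372) and intron 1 at 0.41 ± 0.14 (limma, n = 3, adjusted p = 0.0443), and the lower one was ers1 intron 7 at −0.34 ± 0.12 (limma, n = 3, adjusted p = 0.0394). Without replicate 1 of that group 0 of the 3 were called, and without replicate 2 or 3 only 1 intron of the 16 was.

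ptc3 had a low junction and exon feature where prp16 carried its DAmP allele at 16 °C. In the group labelled pht1∆ prp16DAmP its intron 2 feature was slightly raised, at 0.35, 0.29 and 0.34, while its junction across that intron read −0.96, −0.70 and −0.50 and its exon feature −0.66, −0.44 and −0.23. The junction was called lower, at −0.72 ± 0.11 (limma, n = 3, adjusted p = 7.97e-05), against 9.09% of junctions, and so was the exon feature, at −0.44 ± 0.10 (limma, n = 3, adjusted p = 0.00208), against 16.4% of exon features. The intron feature was not called (limma adjusted p = 0.324). In prp16DAmP alone at 16 °C the junction read −0.59, −0.56 and −0.41 and was called lower, at −0.52 ± 0.11 (limma, n = 3, adjusted p = 0.00301), against 8.32% of junctions, and the exon feature was called lower at −0.36 ± 0.10 (limma, n = 3, adjusted p = 0.0117), against 11.9%. The junction calls held with any array of their group left out, but the exon call was lost without replicate 1 of the group labelled pht1∆ prp16DAmP (limma adjusted p = 0.0816) and without replicate 1 (0.129) or 2 (0.0618) of prp16DAmP. In pht1∆ at 16 °C this junction read 0.24, 0.08 and 0.16. The difference between the group labelled pht1∆ prp16DAmP and pht1∆ at this junction was −0.88 ± 0.16 (limma, n = 3 each, adjusted p = 0.000722), against 5.03% of junctions called lower. The junction across ptc3 intron 1 differed by −0.58 ± 0.15 (limma, n = 3 each, adjusted p = 0.0106), a call lost without pht1∆ 16 °C replicate 2 (−0.35, limma adjusted p = 0.0997).

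In the index of prp16DAmP at 16 °C, ptc3 intron 2 was the only one of the 16 introns called, at 0.60 ± 0.18 (limma, n = 3, adjusted p = 0.0228), against 14.2% of introns called higher and 3.49% lower. The call was lost without replicate 1 (limma adjusted p = 0.213) or replicate 2 (0.0915), with arrays centred on their intron and exon medians (0.0651) and with the intron feature alone (0.378). bud20 had a lower exon feature in that group, at −0.75, −0.57 and −0.32 (limma adjusted p = 0.0176, n = 3), a call lost without replicate 1 (0.197) or 2 (0.0805). ers1 had a slightly higher exon feature, called at 0.20 ± 0.07 in prp16DAmP (limma, n = 3, adjusted p = 0.0423, lost without replicate 1 at 0.338 or 2 at 0.251) and at 0.26 ± 0.07 in the group labelled pht1∆ prp16DAmP (limma, n = 3, adjusted p = 0.00651, lost without replicate 3 at 0.0527). Exon features were called higher in 5.43% of genes in prp16DAmP and 6.98% in the group labelled pht1∆ prp16DAmP. The junction of rec7 across intron 1 was called higher in prp16DAmP at 0.28 ± 0.09 (limma, n = 3, adjusted p = 0.0491), against 5.44% of junctions, and that call was lost without replicate 1 (0.42) or 3 (0.266).

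**Figure D5:**
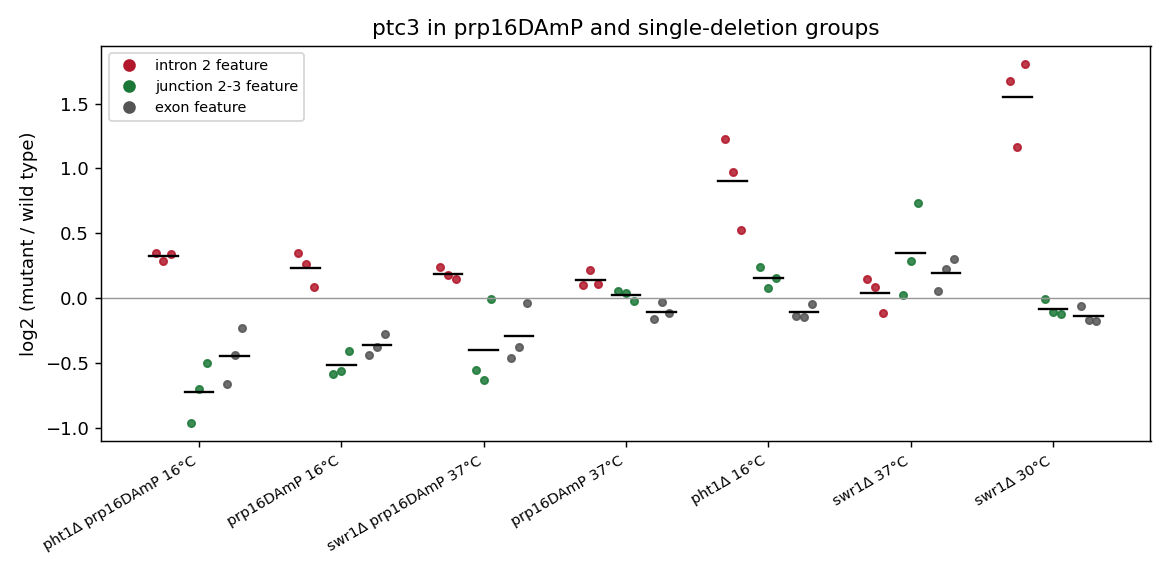
Intron 2 (red), junction 2-3 (green) and exon (grey) features of ptc3, as log2 of mutant over wild type, in 7 groups; points are arrays and bars means of 3 arrays. The junction is below 0 on all arrays of the 2 groups with prp16DAmP at 16 °C (−0.96 to −0.41), and the intron feature is highest in swr1∆ at 30 °C (1.17 to 1.81) among the groups plotted.

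At 37 °C neither group with prp16DAmP had a called intron among the 16. In swr1∆ prp16DAmP the leading introns had indices of −0.06 to 0.48, and 0.166% of all introns were called higher and 0.0415% lower. In prp16DAmP they had −0.20 to 0.26, where the shares of all introns were 0.0415% higher and 0.0208% lower. At an unadjusted p under 0.05, limma called 3 of the 16 and 698 of 4817 in swr1∆ prp16DAmP, and 0 of the 16 and 250 of 4817 in prp16DAmP. With arrays scaled to equal spread, 1 of the 16 was called in swr1∆ prp16DAmP, against 3.92% of all introns, and 3 in prp16DAmP, against 11.6%. ers1 intron 8 read 0.08, 0.48 and 1.22 in swr1∆ prp16DAmP, against 1.25, 0.74 and 0.46 in swr1∆ at 37 °C, and these arrays overlap. No index difference between swr1∆ prp16DAmP and swr1∆ at 37 °C was called for the 16 introns by limma (0 called, 0.623% of all introns called higher and 0.208% lower). At an unadjusted p under 0.05, limma called 1 of the 16 and 751 of 4817 for this difference. The ptc3 junction 2-3 was called, reading −0.55, −0.63 and −0.01 in swr1∆ prp16DAmP, against 0.02, 0.29 and 0.73 in swr1∆, a difference of −0.74 ± 0.16 (limma, n = 3 each, adjusted p = 0.0279), against 0.538% of junctions called lower. That call was lost without replicate 2 or 3 of swr1∆ (limma adjusted p = 0.0837 and 0.352) and without replicate 1 or 2 of swr1∆ prp16DAmP (0.187 and 0.358).

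With usp107DAmP at 30 °C few leading introns were called. In the group labelled pht1∆ usp107DAmP at 30 °C, 2 leading introns were called higher, against 25.1% of all introns, where the median index of all introns was 0.14, and ers1 intron 2 was called lower at −0.59 ± 0.13 (limma, n = 3, adjusted p = 0.00131), against 5.48%. bud20 intron 1 read 1.95, 1.18 and 0.14 as an intron feature, with an index of 1.07 ± 0.25 (limma, n = 3, adjusted p = 0.00163). ers1 intron 8 read 1.63, 0.63 and 0.63, with an index of 0.85 ± 0.22 (limma, n = 3, adjusted p = 0.00364). Both calls were lost without replicate 1 (limma adjusted p = 0.0555 for bud20 and 0.097 for ers1). rec7 intron 1 read 0.64, 1.45 and 0.15, with an index of 0.79 ± 0.33 (limma, n = 3, adjusted p = 0.0663), and it was called without replicate 3 (limma adjusted p = 0.0252) and with a replicate block (0.0316). Replicate 3 was the lowest of the 3 arrays at bud20, rec7, rpc82 and ptc3. Of the 16 junctions, those of rpc82 across intron 1 (−0.37) and of ers1 across introns 3 and 9 (−0.29 each) were called lower, against 29.4% of junctions, and without replicate 2 the limma adjusted p was 0.134, 0.185 and 0.753.

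In usp107DAmP alone at 30 °C, ers1 intron 8 was the only one of the 16 called, against 11.6% of all introns called higher and 2.68% lower. It read 0.98, 1.03 and 0.40, with an index of 0.74 ± 0.22 (limma, n = 3, adjusted p = 0.0214), and the call was lost without replicate 1 (limma adjusted p = 0.123) or replicate 2 (0.202). SPAC186.08c intron 1 read −0.09, 0.74 and 0.03 and rpc82 intron 1 read 0.65, 0.56 and −0.13, with neither called. The ptc3 junction across intron 2 was called lower at −0.34 ± 0.11 (limma, n = 3, adjusted p = 0.0442), against 8.43% of junctions, and the bud20 exon feature higher at 0.44 ± 0.16 (limma, n = 3, adjusted p = 0.0457), against 8.62% of exon features. The junction call was lost with any 1 array left out (limma adjusted p = 0.119 to 0.19), and the exon call without replicate 1 (0.455) or 2 (0.257). Same-numbered arrays of the group labelled pht1∆ usp107DAmP and of usp107DAmP deviated together (r of 0.483, 0.424 and 0.577 across introns). The test of their difference did not pair them. The difference between the group labelled pht1∆ usp107DAmP and usp107DAmP was not called at any of the 16 introns by limma, where 0.208% of all introns were called higher and 0.0415% lower. At an unadjusted p under 0.05, limma called 3 of the 16 and 475 of 4817. bud20 intron 1 came nearest, at 1.07 in the double mutant and −0.07 in usp107DAmP, a difference of 1.13 ± 0.35 (limma, n = 3 each, adjusted p = 0.186), and it was called without replicate 3 of the double mutant (1.46, limma adjusted p = 0.0293).

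Leaving out the arrays that chose the genes, the intron features of the 6 arrays of swr1∆ at 30 °C and pht1∆ at 16 °C had a lowest value between 0.52 (ptc3 intron 2) and 1.57 (ers1 intron 8). The 6 arrays with usp107DAmP reached into that range at every leading intron, from a highest value of 0.63 for ptc3 to 1.95 for bud20. The other 15 arrays, with prp16DAmP or at 37 °C, did not reach it at any of them: their highest values were 0.08 for rpc82, 0.20 for SPAC186.08c, 0.35 for ptc3, 0.43 for rec7, 0.58 for bud20 and 1.25 for ers1. The arrays were parted by where these introns were seen to be high. How many of all introns part in this way was not counted.

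The indices of the 6 were also positively correlated with each other, over arrays that included groups in which all 6 were high. Over the 27 arrays other than those of pht1∆ at 30 °C, Pearson's r of the index was highest for bud20 intron 1 with rpc82 intron 1 (0.854), SPAC186.08c intron 1 (0.824) and ptc3 intron 2 (0.818), out of 4816 introns of other genes. rpc82 intron 1 was closest to SPACUNK4.13c intron 1 (0.888) and uba42 intron 1 (0.866), and rec7 intron 1 to SPACUNK4.13c intron 1 (0.862) and rpb1 intron 5 (0.837). SPAC186.08c intron 1 had rpc82 intron 1 first (0.853) and tif45 intron 1 next (0.829). ers1 intron 8 ran from 0.801 with rpc82 down to 0.489 with ptc3, the lowest value among the 6, and was closest to mfm2 intron 1 (0.82). At 0.489, ptc3 intron 2 ranked 272 of 4808 introns of other genes for ers1 intron 8. These values describe arrays that fall into groups and share group means, and no p is attached to them.

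Among pathway partners of the 6 genes, no called intron was above 1.21 in swr1∆ at 30 °C, where 4.57% of all introns were called higher and 1.74% lower. Of the other RNA polymerase III genes, 1 of 16 introns was called higher in swr1∆ at 30 °C, rpc1 intron 1 at 0.61 ± 0.15 (limma, n = 3, adjusted p = 0.0157), in the largest subunit. Of the RNAi and heterochromatin genes, 5 of 25 introns were called higher, led by introns 2, 3 and 1 of arb1, a partner of Argonaute, at 0.68, 0.53 and 0.52. The exon feature of arb1 was −0.53, and these intron features lay between −0.02 and 0.15, so their index rests on the exon feature. Of the meiotic recombination genes, 2 of 41 introns were called higher: rec11 intron 3, in a meiotic cohesin gene, at 1.21 ± 0.21 (limma, n = 3, adjusted p = 0.000449) with an intron feature of 1.08, and rec14 intron 1 at 0.50 ± 0.15 (limma, n = 3, adjusted p = 0.0474). Of the genes for late assembly and export of the large ribosomal subunit, 0 of 19 were called higher and nog1 intron 2 lower, and of the PP2C genes 0 of 3 were called. These lists leave out only the leading introns. They still hold the other introns of ers1, rec7 and ptc3, of which 0 were called. The list medians ran from −0.22 to 0.12, where all introns had 0.06.

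In pht1∆ at 16 °C, where 21.9% of all introns were called higher, the counts were 4 of 16 for RNA polymerase III, 8 of 25 for RNAi and heterochromatin, 2 of 41 for meiotic recombination, 6 of 19 for the large ribosomal subunit and 0 of 3 for PP2C. The other introns of ers1, rec7 and ptc3, of which 0 were called here too, are again counted in their lists. The leading examples were rpb5 intron 2 at 0.71 (a subunit shared by the RNA polymerases), arb1 intron 3 at 1.04, where the exon feature was −0.91 and the intron feature 0.13, dsh1 intron 6 at 1.01, dmc1 intron 3 at 0.90 (the meiotic strand exchange protein) and nog1 intron 3 at 0.88 (a GTPase of ribosome assembly). Only alb1 intron 1 was lower among the ribosomal list, at −1.25 ± 0.34 (limma, n = 3, adjusted p = 0.0077).

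The genes next to the 6 on the chromosome gave few calls. Of 15 neighbouring or overlapping genes, the exon features of sst2 and fta4 were lower in swr1∆ at 30 °C. sst2, whose RNA runs opposite to bud20 over its intron, was at −0.36 ± 0.10 (limma, n = 3, adjusted p = 0.035), and fta4, upstream of ers1, at −0.44 ± 0.11 (limma, n = 3, adjusted p = 0.0219), against 3.65% of exon features. In pht1∆ at 16 °C sst2 was at 0.18 and fta4 at −0.08, with neither called.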

How the data were processed

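The deposited table holds 1 value per feature and array. Per the labels, these come from Agilent splicing arrays with mutant RNA in Cy5 and wild-type RNA in Cy3, and the deposited values were read as log2 ratios of mutant over wild type. The labels give neither the log base nor how background, normalization and probe summaries were handled. The table holds no signal, so signal over background could not be weighed. Array medians lay within 0.0254 of 0, and 0 values were missing.

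The splicing index (intron feature minus exon feature of the gene) was computed for 4817 introns of 2312 genes. It, and the intron, junction and exon features, were each fitted over all 30 arrays with limma 3.58.1 in R 4.3.3 (lmFit, eBayes, 1 mean per group), two-sided, with Benjamini-Hochberg adjustment over all features of a kind and a threshold of 0.05. Tested on simulated data for swr1∆ at 30 °C, the fit recovered 98% of 200 introns changed by 1 on the log2 scale, and 6.2% of its calls were false. The simulated noise was normal, independent between arrays and of the same spread in every group. In the real arrays the mean SD of a feature ran from 0.084 to 0.245 by group, and some same-numbered arrays deviated together. These rates may therefore not hold for the real arrays. Gene names came from ASM294v3, where 4777 genes matched by identifier and 200 by synonym, and 108 did not.

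All 38 features of the 6 genes were used, with no filter. The named genes are the 6, the introns next in rank to them in pht1∆ at 30 °C, the 3 introns most alike to each, up to 3 called introns per list of pathway partners, and chromosomal neighbours. Members and lists were chosen with earlier results of these data known. Replicate numbers were taken to pair samples where every same-numbered pair of arrays had deviations correlated at over 0.1 by index. This held for pht1∆ usp107DAmP and usp107DAmP (0.483, 0.424 and 0.577) but for none of the other 3 differences tested. The nearest was swr1∆ prp16DAmP with swr1∆ at 37 °C, at 0.247, 0.0231 and 0.259. By index, every same-numbered pair was also over 0.1 in 4 pairs of groups whose difference was not tested: pht1∆ with swr1∆ at 30 °C, prp16DAmP with pht1∆ prp16DAmP at 16 °C, prp16DAmP at 16 °C with swr1∆ at 37 °C, and pht1∆ prp16DAmP at 16 °C with swr1∆ prp16DAmP at 37 °C. Alternatives were other references for the index, centring, equal spread, a replicate block, robust eBayes, only the arrays compared, and arrays left out.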

Additional observations from a re-analysis of the deposited data

Results flagged for a closer look

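In swr1∆ the splicing index of 4 leading introns differed between temperatures by a test of the difference itself. The index of swr1∆ at 37 °C minus that of swr1∆ at 30 °C was −3.19 for bud20 intron 1, −2.44 for SPAC186.08c intron 1, −1.67 for rpc82 intron 1 and −1.84 for ptc3 intron 2 (limma adjusted p = 2.13e-06, 3.62e-06, 2.76e-05 and 5.3e-05). Wild-type cells were shifted along with the mutant, so the temperature and the wild type it was set against cannot be told apart in these ratios. The swr1∆ 30 °C arrays deviated together with the same-numbered pht1∆ 30 °C arrays that chose these introns.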

How the results depend on the processing

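No called value turned its direction under any alternative. The number of calls stayed within 1.5 times under every alternative run for swr1∆ at 30 °C (6, and 5 without replicate 1, where rec7 intron 1 lost its call), pht1∆ at 16 °C (6), swr1∆ at 37 °C against 30 °C (4) and swr1∆ prp16DAmP against swr1∆ at 37 °C (0). Counts of called introns among the 16 moved elsewhere. With equal spread they were 0 in prp16DAmP at 16 °C and in usp107DAmP, 1 in swr1∆ and in swr1∆ prp16DAmP at 37 °C and 3 in prp16DAmP at 37 °C. With centring on intron and exon medians they were 5 in the group labelled pht1∆ prp16DAmP, 6 in that labelled pht1∆ usp107DAmP and 2 in prp16DAmP at 16 °C. With the junction as reference they were 6 in the group labelled pht1∆ usp107DAmP and 2 in prp16DAmP at 16 °C, and with the mean of exon and junction features 5 in the group labelled pht1∆ usp107DAmP. With the intron feature alone they were 1 in the group labelled pht1∆ prp16DAmP and 0 in prp16DAmP at 16 °C. With only the arrays compared they were 5 in the group labelled pht1∆ prp16DAmP, 1 in that labelled pht1∆ usp107DAmP, 1 in swr1∆ at 37 °C and 0 in usp107DAmP, and this fit also lost 5 of the 6 intron feature calls of swr1∆ at 30 °C (bud20 kept its call). The cause was not tested. For the alternatives other than equal spread, and with arrays left out, the share of all introns called is not given here. Those counts therefore cannot be set against all introns.

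With 1 array left out, the counts ran from 3 to 5 for the group labelled pht1∆ prp16DAmP against pht1∆, 0 to 1 for that group against wild type, 1 to 4 for the group labelled pht1∆ usp107DAmP against wild type and 0 to 1 against usp107DAmP, and 0 to 1 for prp16DAmP at 16 °C and for usp107DAmP. Of 981 alternative values of single results called in any fit, 518 were called as in the fit reported, 283 were called in neither fit, 109 lost a call and 71 gained one. The replicate block fits effects of the replicate numbers that all groups share. It therefore cannot remove a deviation that only the groups compared have in common. It left the counts of the pht1∆ usp107DAmP and usp107DAmP comparison at 0. Elsewhere it gained rec7 intron 1 in swr1∆ at 37 °C against 30 °C (limma adjusted p = 0.02) and in the group labelled pht1∆ usp107DAmP against wild type, and it lost no index call. Filters on dim probes, background correction and a dye swap were not run, because the table holds ratios only. Each group has 3 arrays, and this number limits the precision.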
